A study of Mus musculus with 8 samples.

Results

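Guanylate-binding proteins (GBPs) are large GTPases that cells make in response to interferon. The 8 mouse genes Gbp2, Gbp3, Gbp4, Gbp5, Gbp6, Gbp7, Gbp8 and Gbp9 were taken by name as 8 of the 20408 genes found in at least 1 of 8 single-cell RNA-seq libraries of tumour endothelial cells (ECs). All 8 were present in every library. They were read in the 7159 of 8204 deposited cells that held at least 1 molecule of Pecam1, the gene of the EC surface protein CD31.

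The study asked how ECs of breast tumours that arose in place and of breast tumours that were implanted respond to cGAMP, an agonist of the cytosolic DNA sensing adaptor STING. Spontaneous tumours grew in female MMTV-PyMT mice, which carry the polyoma middle T oncogene under a promoter active in mammary epithelium, and treatment began at 9 weeks of age. Implanted tumours grew from cells of such tumours that were kept in culture for 2 days and placed in the mammary fat pad of female hosts aged 8 to 9 weeks. Each tumour was injected with PBS or cGAMP and taken 3 h later. CD31+ ECs were sorted, and each of the 4 groups held 2 mice with 1 library each. The sample labels give the strain as C57BL/6 and the age as adult for every library, whereas the methods describe FVB mice for both models.

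GBPs bind guanine nucleotides, assemble into coats on pathogen vacuoles and on bacteria, and help to activate inflammasomes and pyroptotic cell death. Their genes are classical targets of interferon gamma and type I interferon, read at GAS elements (interferon gamma activated sites) and at ISRE elements (interferon-stimulated response elements). In endothelium, human GBP1 is known as a marker of cells that have met inflammatory cytokines, and it restrains their proliferation and spread.

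The members lie in 2 clusters on mm10 (GRCm38, GENCODE vM21), and all 8 are annotated as protein coding. On the plus strand of chromosome 3 are Gbp5 (chr3:142493978-142522344), Gbp7 (chr3:142530342-142550149), Gbp3 (chr3:142560026-142573209) and Gbp2 (chr3:142620602-142638008). On the minus strand of chromosome 5 are Gbp8 (chr5:105014150-105139540), Gbp9 (chr5:105077630-105139539), Gbp4 (chr5:105115767-105139586) and Gbp6 (chr5:105270702-105293698). Gbp4, Gbp8 and Gbp9 share 60 or 61 exonic bases on the same strand, 0.814% to 1.77% of each gene's exonic bases. Gbp6 is the member whose reads are least certain, because 77.8% of the 50-base windows towards the 3′ end of its transcript also occur in Gbp10, Gbp9 or Gm43302. The same share was 6.43% for Gbp4, 5.99% for Gbp5 and 0 for the other 5 members. Gbp7 shares 11.4% of its exonic bases with the same-strand gene Gm43802.

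Promoters are shown because the members moved together and because their sequence can be searched for both interferon elements. Of the promoters shown, each held an ISRE match, and only those of Gbp5 and Gbp7 held a GAS match. The 4 members of the chromosome 3 cluster had a promoter in the RefSeq table (GRCm38.p6), and Gbp4, Gbp6, Gbp8 and Gbp9 had none there. Each line gives the 180 bases that end at the transcription start, on the plus strand, with matches to an ISRE (GAAANNGAAA, either strand) or a GAS (TTCNNNGAA) in capitals. The stretches are chr3:142620483-142620662 for Gbp2, chr3:142559864-142560043 for Gbp3, chr3:142496754-142496933 for Gbp5 and chr3:142530156-142530335 for Gbp7. The Gbp5 stretch lies inside the gene as placed above, which begins at chr3:142493978, so its positions refer to a later start.
Gbp2: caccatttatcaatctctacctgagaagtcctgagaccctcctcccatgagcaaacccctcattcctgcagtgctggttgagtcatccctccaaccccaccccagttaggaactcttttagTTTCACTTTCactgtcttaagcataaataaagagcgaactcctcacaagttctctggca
Gbp3: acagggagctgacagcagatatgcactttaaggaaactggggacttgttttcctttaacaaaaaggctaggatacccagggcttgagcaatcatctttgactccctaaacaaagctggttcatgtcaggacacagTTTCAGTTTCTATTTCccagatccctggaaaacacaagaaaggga
Gbp5: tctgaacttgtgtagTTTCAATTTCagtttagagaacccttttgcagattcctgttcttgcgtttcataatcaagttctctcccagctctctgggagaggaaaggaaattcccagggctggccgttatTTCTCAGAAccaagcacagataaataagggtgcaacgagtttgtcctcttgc
Gbp7: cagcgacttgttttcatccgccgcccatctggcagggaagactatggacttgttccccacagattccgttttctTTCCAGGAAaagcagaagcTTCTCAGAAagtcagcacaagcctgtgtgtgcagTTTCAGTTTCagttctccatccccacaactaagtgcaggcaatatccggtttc

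Over the whole promoter window, from 250 bases before to 50 after the start, each of the 4 held an ISRE match. The match began at position -59 from the start in Gbp2, -53 in Gbp7 and -165 in Gbp5, and Gbp3 held 2 overlapping matches at -45 and -39. GAS matches were found at -106 and -87 in Gbp7 and at -245 and -52 in Gbp5, of which the one at -245 lies before the bases shown. The Gbp2 and Gbp3 windows held no GAS match, and a second annotated start of Gbp3 held neither element. Among all 32851 promoter windows of the table, 3.44% held the ISRE, 8.3% the GAS and 0.454% both, as Gbp5 and Gbp7 did. No GAS match overlapped an ISRE match. These are matches of letters, and no factor binding was measured.

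The libraries held 7863535 to 16506086 unique molecular identifiers (UMIs, 1 per captured RNA molecule) and 601 to 1529 Pecam1-positive cells. A gene's level in a library is given as CPM, its UMIs as counts per 1000000 UMIs of the cell, averaged over these cells. The summed EC markers lay between 8020 and 9312 CPM in the 8 libraries, and Cdh5 between 1035 and 1242 CPM, so the labelled cell type was found in each. Replicate 1 of implanted cGAMP stood apart, with a median of 3049 UMIs per cell against 9523 to 14708 in the others and with the highest level of epithelial tumour markers (1124 CPM against 165 to 707). The sum of immune markers was 22.5 to 55.8 CPM in 6 libraries but 339 and 92.4 CPM after cGAMP in the implanted tumour, although CD45+ cells were gated out, and Ptprc (CD45) itself reached 24.7 and 10.2 CPM there against 0.16 to 3.55. Across libraries, 7 cell barcodes occurred more than once.

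In the spontaneous tumour every GBP gene was low after PBS and higher 3 h after cGAMP, by 3.63-fold for Gbp9 and by more for the other members. Gbp2, a prenylated GBP that coats vacuoles and promotes caspase-11 and AIM2 inflammasomes, measured 49.0 and 40.1 CPM after PBS and 557 and 546 CPM after cGAMP. Gbp5, a prenylated member linked to NLRP3 inflammasome assembly, measured 11.2 and 12.3 CPM and then 167 and 157 CPM. Gbp7, which takes part in the killing of bacteria inside cells, measured 82.5 and 90.9 CPM and then 590 and 618 CPM. For these members the replicates of a group lay within a ratio of 1.22, and the PBS and cGAMP libraries were far apart.

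Gbp3, the remaining member of the chromosome 3 cluster, measured 24.0 and 18.3 CPM after PBS and 236 and 230 CPM after cGAMP. On chromosome 5, Gbp4 measured 47.5 and 44.8 CPM and then 269 and 270 CPM. Gbp9 measured 77.2 and 89.4 CPM and then 300.0 and 308 CPM. The order of the groups was thus the same for both clusters. Gbp6 and Gbp8 were rare: Gbp6, a member with a reported part in host defence against bacteria, measured 0.33 and 0.26 CPM and then 6.76 and 6.41 CPM. Gbp8 measured 0.03 and 0.46 CPM and then 14.4 and 16.0 CPM. After PBS these rested on 8 UMIs of Gbp6 and 4 UMIs of Gbp8 in both libraries together, so the fold is better read from the UMIs. The rate of Gbp6 UMIs was 16.2 times higher after cGAMP (exact 95% interval 8.03 to 38.3) and that of Gbp8 74.3 times higher (28.7 to 274), with intervals that cover counting error only.

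**Figure D1:**
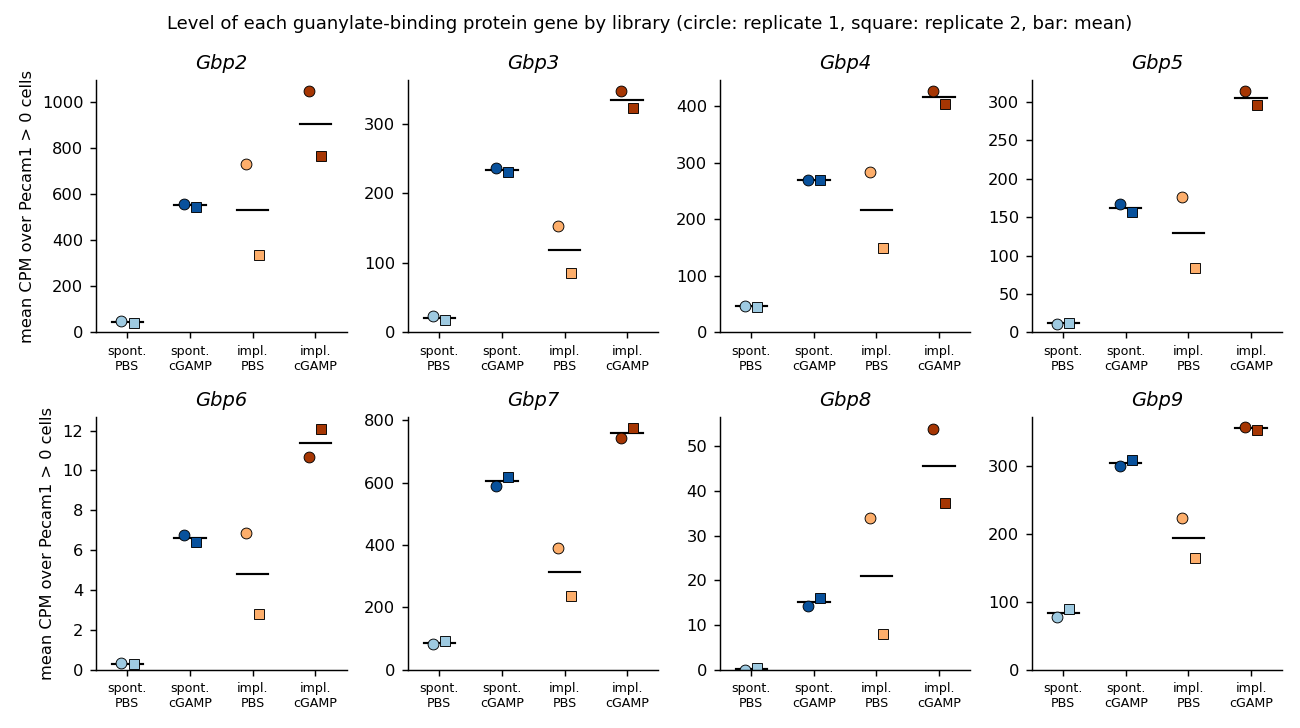
Mean level of each of the 8 GBP genes in CPM (y axis, linear, from 0) in the 4 groups (x axis), with 1 point per library (circle, replicate 1; square, replicate 2) and a bar at the group mean. Gbp2 sits at 49.0 and 40.1 CPM in spontaneous PBS and at 335 CPM or above in the 6 other libraries, and the implanted PBS replicates are the farthest apart for each gene.

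The change was tested with limma on log2(CPM + 1) over the 10424 genes at 5 CPM or more in at least 2 libraries, with p-values adjusted over all of them (Benjamini-Hochberg). All 8 members passed this filter and all 8 rose in the spontaneous tumour, where 5.09% of the genes tested were called higher. The rise in log2 was 3.61 ± 0.29 (SE) for Gbp2 (adjusted p = 3.66e-05), 3.68 ± 0.26 for Gbp5 (1.39e-05), 2.79 ± 0.18 for Gbp7 (8.59e-06), 3.42 ± 0.22 for Gbp3 (8.21e-06), 2.52 ± 0.23 for Gbp4 (7.35e-05) and 1.86 ± 0.13 for Gbp9 (1.36e-05). Gbp6 and Gbp8 rose by 2.55 ± 0.36 and 3.72 ± 0.50, values that the added 1 CPM makes smaller than their UMI ratios. The median over the 8 members was 3.1 and that over all genes -0.10. No member's PBS and cGAMP libraries overlapped, as was so in the higher direction for 18.8% of all genes. Of the genes called, 40.2% were higher and, when libraries were scaled by the median of ratios, 65.3%, and the 8 members were called under both scalings. Every member remained called in each of 21 alternative analyses, including those without any 1 library. After cGAMP the summed mural markers of these libraries were 1019 and 792 CPM, against 293 and 701 after PBS, the fibroblast markers 222 and 181 against 31.1 and 122, and the proliferation markers 215 and 244 against 611 and 413. All 8 members were still called without the mural and epithelial tumour clusters, and the part of fibroblast or cycling cells was not tested.

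In the implanted tumour the genes were already high after PBS, and the step to cGAMP was smaller. Gbp2 measured 729 and 335 CPM after PBS and 1046 and 764 CPM after cGAMP. Gbp5 measured 176 and 83.7 CPM and then 314 and 296 CPM. Gbp7 measured 392 and 236 CPM and then 743 and 775 CPM. Replicate 1 of implanted PBS was the higher one for each member, so that for Gbp2 its level came close to that of a cGAMP library.

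Gbp3 measured 153 and 85.5 CPM after PBS and 347 and 323 CPM after cGAMP. Gbp4 measured 284 and 149 CPM and then 428 and 403 CPM. Gbp9 measured 224 and 165 CPM and then 358 and 353 CPM. The replicates after cGAMP lay close together for these members, within a ratio of 1.08, while those after PBS differed by 1.36 to 1.91 times. Gbp6 measured 6.88 and 2.77 CPM and then 10.7 and 12.1 CPM. Gbp8 measured 33.9 and 8.0 CPM and then 53.9 and 37.4 CPM, with the widest PBS pair (4.23 times). The 2 cGAMP libraries were above the 2 PBS libraries for each of the 8 members, which was the case for 21.6% of all genes.

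By the same test 6 of the 8 members rose in the implanted tumour, where 8.60% of genes were called higher: Gbp3 by 1.54 ± 0.22 (adjusted p = 0.00119), Gbp7 by 1.32 ± 0.18 (0.000987), Gbp5 by 1.32 ± 0.26 (0.00565), Gbp4 by 1.01 ± 0.23 (0.0104), Gbp9 by 0.88 ± 0.13 (0.00133) and Gbp6 by 1.18 ± 0.36 (0.0394). Gbp2 (0.85 ± 0.29, adjusted p = 0.0602) and Gbp8 (1.37 ± 0.50, 0.0753) did not pass. The median over the members was 1.25 and over all genes -0.10. Of the genes called, 34.3% were higher, and 51.7% under median-of-ratios scaling. In UMIs the rate of Gbp6 was 1.61 times (1.32 to 1.97) and that of Gbp8 1.97 times (1.79 to 2.17) that after PBS, by counting error only.

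The size of this rise turned on the 2 implanted PBS libraries. Without replicate 1 all 8 members passed, with changes from 1.10 (Gbp9) to 2.35 (Gbp8) and 1.42 for Gbp2. Without replicate 2, 5 passed, and the changes ran from 0.29 (Gbp2) to 1.13 (Gbp3). Gbp6 also lost its call without either implanted cGAMP library and without either spontaneous cGAMP library. The summed immune markers were highest in the implanted cGAMP libraries. Cells with 0 UMIs of those markers were 908 and 333 of the 1529 and 604 cells there. Among such cells of all libraries 5 members passed. The changes were then 0.83 for Gbp2, 1.51 for Gbp3, 1.32 for Gbp5 and 1.27 for Gbp7. Over all Pecam1-positive cells these changes were 0.85, 1.54, 1.32 and 1.32 in the same order.

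The 2 rises were compared in 1 model as the implanted change minus the spontaneous change. The rise was smaller in the implanted tumour for Gbp2 (-2.75 ± 0.41, adjusted p = 0.0279), Gbp5 (-2.36 ± 0.37, 0.0297), Gbp3 (-1.87 ± 0.31, 0.0411) and Gbp7 (-1.47 ± 0.26, 0.0460), which are the 4 members on chromosome 3, whereas 0.460% of all genes were called lower in this term. The chromosome 5 members had values of -0.98 ± 0.18 for Gbp9 (0.0557), -1.51 ± 0.32 for Gbp4 (0.0800), -2.35 ± 0.71 for Gbp8 (0.206) and -1.37 ± 0.51 for Gbp6 (0.294), none of which passed, and the clusters were not tested against each other. The median over the 8 members was -1.69 against -0.02 for all genes. No member passed when any 1 of the 4 spontaneous libraries was left out, with Gbp2 then between -2.89 and -2.61, and the number of genes called then also fell. Without replicate 2 of implanted PBS 7 members passed, without replicate 1 of implanted PBS 5, and without replicate 1 of implanted cGAMP 3.

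Set against each other after PBS, ECs of the implanted tumour held more of every member than those of the spontaneous tumour. All 8 were called higher, against 3.39% of genes, and no libraries overlapped, against 21.5%. Gbp2 was 10.9-fold higher (log2 3.45 ± 0.29, adjusted p = 0.000244) and Gbp5 9.60-fold (3.26 ± 0.26, 0.000193). Gbp3 was 5.26-fold (0.000416), Gbp4 4.39-fold (0.000800), Gbp7 3.48-fold (0.000664) and Gbp9 2.30-fold (0.000889) higher on the log2(CPM + 1) scale. Gbp6 (2.07 ± 0.36, 0.00971) and Gbp8 (3.86 ± 0.50, 0.00217) were higher too, and their UMI rates differed by 13.3 times (6.62 to 31.4) and 106 times (41.4 to 391.5). The median was 2.26 over the members and -0.06 over all genes. Of the genes called, 43.3% were higher, and 65.4% under median-of-ratios scaling. Gbp6 lost its call without replicate 1 of implanted PBS and without replicate 2 of spontaneous PBS. The PBS groups are shared with the cGAMP comparisons, so high implanted PBS levels and a small implanted rise are in part the same measurement. With 2 mice a group, 1 library each, the spread between replicates holds both mouse and library.

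After cGAMP the models were closer. Only Gbp5 was called higher in the implanted tumour (0.91 ± 0.26, adjusted p = 0.0470), against 5.23% of genes. The other members had values from 0.22 ± 0.13 for Gbp9 (0.284) to 1.51 ± 0.50 for Gbp8 (0.0776), with Gbp2 at 0.70 ± 0.29 (0.144) and Gbp7 at 0.33 ± 0.18 (0.262). All 8 had both implanted libraries above both spontaneous ones, as did 21.4% of genes. The call of Gbp5 was lost without any 1 of the spontaneous or implanted cGAMP libraries, and 6 members passed without either implanted PBS library or in a fit of the cGAMP libraries alone, so this comparison gives no fixed number of members. Of the genes called, 38.0% were higher, and 58.3% under median-of-ratios scaling.

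**Figure D2:**
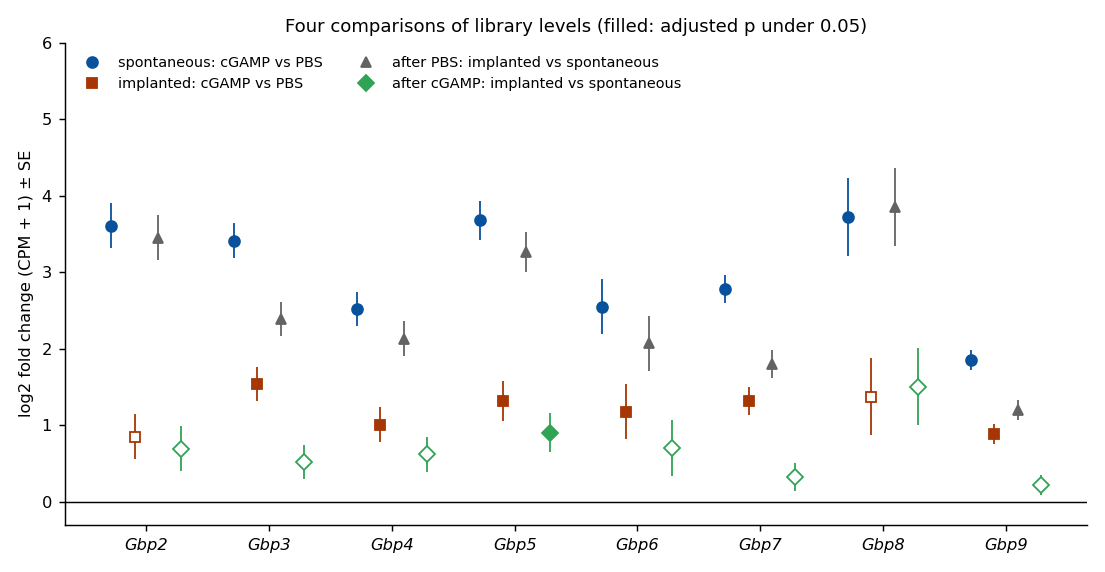
Log2 fold change on the CPM + 1 scale (y axis, bars ± SE) of each GBP gene (x axis) in 4 comparisons of library levels, each marked by its own symbol and colour, filled where the adjusted p is under 0.05. The spontaneous cGAMP change lies above the implanted one for each gene, and the values of implanted against spontaneous run from 1.2 to 3.86 after PBS and from 0.22 to 1.51 after cGAMP.

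The members did not rise by equal factors, and so their shares of the summed GBP levels in CPM shifted. These shares rest on 3′ counts of 1 UMI per molecule and were compared within a gene only. In the spontaneous tumour Gbp2 made up 15.2% ± 2.31 (SD, n = 2) of the sum after PBS and 25.7% ± 0.47 after cGAMP, and in the implanted tumour 34.0% ± 3.57 and 28.7% ± 4.17. Gbp9 made up 28.3% ± 2.62, 14.2% ± 0.23, 13.4% ± 3.05 and 11.4% ± 0.75 in the same order. After cGAMP its share was thus lower in both models, while that of Gbp2 was higher in the spontaneous and lower in the implanted tumour. Gbp4 stayed between 12.6% and 15.7% in the 4 groups. The sum itself was 292 and 297 CPM after PBS and 2140.3 and 2152 after cGAMP in the spontaneous tumour. In the implanted tumour it was 1999 and 1064 CPM and then 3300 and 2963. Over the 8 libraries Gbp9 spanned the smallest range (2.20 in log2) and Gbp8 the widest (5.74).

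Genes with the most similar pattern were sought by the root mean square difference of centred log2 levels over the 8 libraries, a description that rests on few points that share their groups. The mean of the 8 members was nearest to Tap1 (0.15), the peptide transporter of MHC class I loading, then to Ifi47 (0.16), Tgtp1 (0.17), Iigp1 (0.20) and Batf2 (0.20). Ifi47, Tgtp1 and Iigp1 are interferon-inducible GTPases of a second family. Taken singly, Gbp9 was nearest to Psmb10 (0.077), a subunit of the immunoproteasome, Gbp5 to Igtp (0.13), Gbp3 to Irgm2 (0.17) and Gbp4 and Gbp6 to Tap1 (0.17 and 0.16). Gbp2 was nearest to Gbp10 (0.20) and Gbp8 to the MHC class II gene H2-Ab1 (0.36).

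The rise was also read per cell, in ECs thinned to 2000 UMIs each, with mural and epithelial tumour clusters left out. Cells under 2000 UMIs could not be used. They made up 37.9% of the Pecam1 cells of implanted cGAMP replicate 1, where 864 of 1408 ECs remained, and 3.28% to 10.6% in the other libraries. A cell held a UMI of 0.480 and 0.521 members on average after PBS and 2.38 and 2.56 after cGAMP in the spontaneous tumour, and 1.99 and 1.29 and then 3.40 and 3.20 in the implanted tumour. Cells with no member made up 62.4% and 59.8%, 12.9% and 9.41%, 27.0% and 36.9%, and 3.13% and 3.41% in the same order. The higher library levels thus went with more cells that held any member, in both models. Cells with 4 or more members made up 0.469% and 0.376% of spontaneous PBS ECs and 25.1% and 28.6% after cGAMP. In the implanted tumour they made up 22.8% and 9.19% after PBS and 48.3% and 43.3% after cGAMP. In implanted PBS replicate 1, with 27.0% of cells with no member, the top decile of cells began at 12 GBP UMIs, and in replicate 2 at 6, against 10 in both spontaneous cGAMP libraries.

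Of the single members, Gbp2 and Gbp7 followed the same order of the groups. Gbp8 did not, with 2.51% and 2.69% of spontaneous cGAMP cells and 5.30% and 1.47% of implanted PBS cells. Gbp2 was found in 7.86% (Wilson 95% interval 6.24 to 9.87) and 6.96% (5.09 to 9.44) of spontaneous tumour ECs after PBS and in 47.8% and 46.4% after cGAMP, and the implanted tumour gave 41.1% and 24.5% and then 69.7% and 58.3%. Gbp7 was found in 13% and 18.0%, 57.2% and 63.5%, 42.3% and 28.8%, and 74.3% and 73.2%. Gbp6 was in 0 of 852 and 0 of 532 cells of spontaneous PBS (upper limits 0.449% and 0.717%) and in at most 2.51% elsewhere. Depth at 2000 UMIs thus limits what can be said of Gbp6 per cell. Without thinning, at median depths of 9412 and 10230 UMIs, Gbp2 was found in 27.4% and 30.2% of spontaneous PBS ECs. GBPs are not restricted to ECs, so no cell type here should lack them, and in the few mural and epithelial tumour cells Gbp2 was found in 33 of 50 and 21 of 46 cells of spontaneous cGAMP and in 76 of 85 cells of replicate 1 of implanted cGAMP. All of these cells were Pecam1-positive too, and mural cells held a median of 2.08 times the median UMIs of their library. The part of free RNA, or of ECs caught together with these cells, was not tested.

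**Figure D3:**
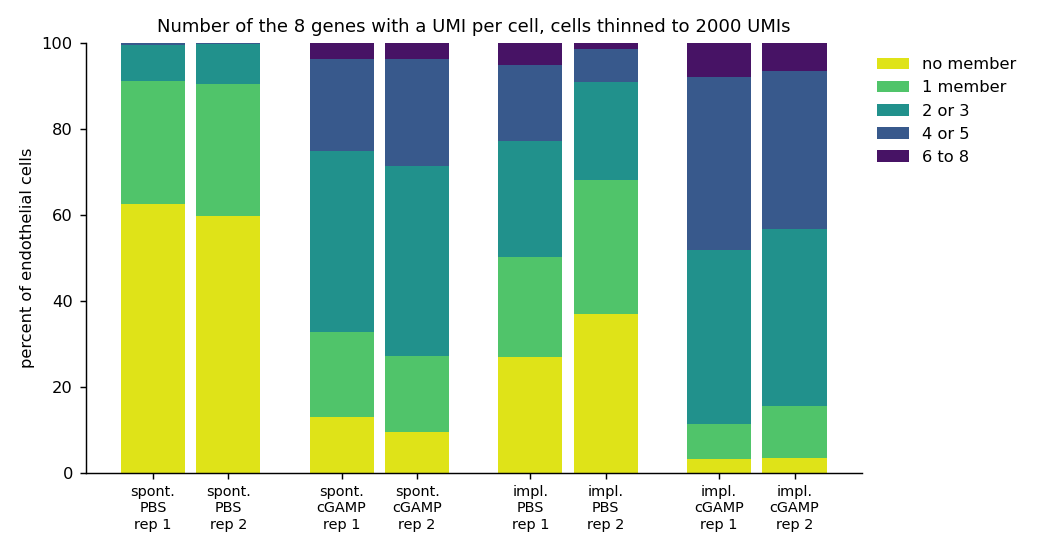
Percent of ECs (y axis) in each of the 8 libraries (x axis) by the number of the 8 GBP genes with at least 1 UMI, among ECs of 2000 UMIs or more, each thinned to 2000. The darkest parts, 6 or more genes, reach 7.87% and 6.64% in the implanted cGAMP bars and 0 in those of spontaneous PBS, where the cells with no gene fill 62.4% and 59.8% of the bars.

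Vessel types were told apart by clustering without 952 genes that included the GBPs and other genes moved by cGAMP. Arterial ECs (Gja5, Gja4, Sox17), postcapillary venous or stalk-like ECs (Ackr1, Selp, Vwf) and tip-like ECs (Apln, Esm1, Angpt2) had at least 57 cells in each library and could be tested. A further 1098 ECs led by Ptn and Aplnr matched none of the marker lists and are called the Ptn Aplnr cluster. Most arterial cells of implanted cGAMP replicate 1 lay in the cluster led by Gkn3 and Mgp (138 of 245 cells), and in the other libraries most lay in the cluster led by Cxcl12 and Dkk2. A shallow cluster of 1248 cells, 533 of them from that library, was left unnamed. It had a median of 1584 UMIs and was led by Spp1, Wfdc18, Csn3 and Lcn2. Wfdc18 and Csn3 were on the list of epithelial tumour markers. Its cells were kept among the ECs, and made up 533 of the 1408 ECs of implanted cGAMP replicate 1. They entered the shares per cell where deep enough, and the other ECs that each class was set against. Whether they were ECs was not tested.

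Among these 4, Gbp2 was highest in tip-like ECs in 6 of 8 libraries and lowest in arterial ECs in 5 of 8. In tip-like ECs it measured 91.1 and 39.7 CPM after PBS and 828 and 725 after cGAMP in the spontaneous tumour, and 1835 and 623 and then 2003 and 1256 CPM in the implanted tumour. In the same order it measured, in arterial ECs, 39.4 and 45.1, 377 and 384, 287 and 160, and 725 and 625 CPM. Venous ECs lay between the tip-like and arterial ECs in 6 of 8 libraries, with 54.2 and 48.0, 726 and 741, 804 and 473, and 1170.4 and 1183 CPM. The Ptn Aplnr cluster measured 29.6 and 31.5, 429 and 423, 797 and 422, and 1074 and 618 CPM. Tip-like ECs of implanted PBS replicate 1 thus lay between those of the 2 implanted cGAMP libraries, and those of replicate 2 lay below both.

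**Figure D4:**
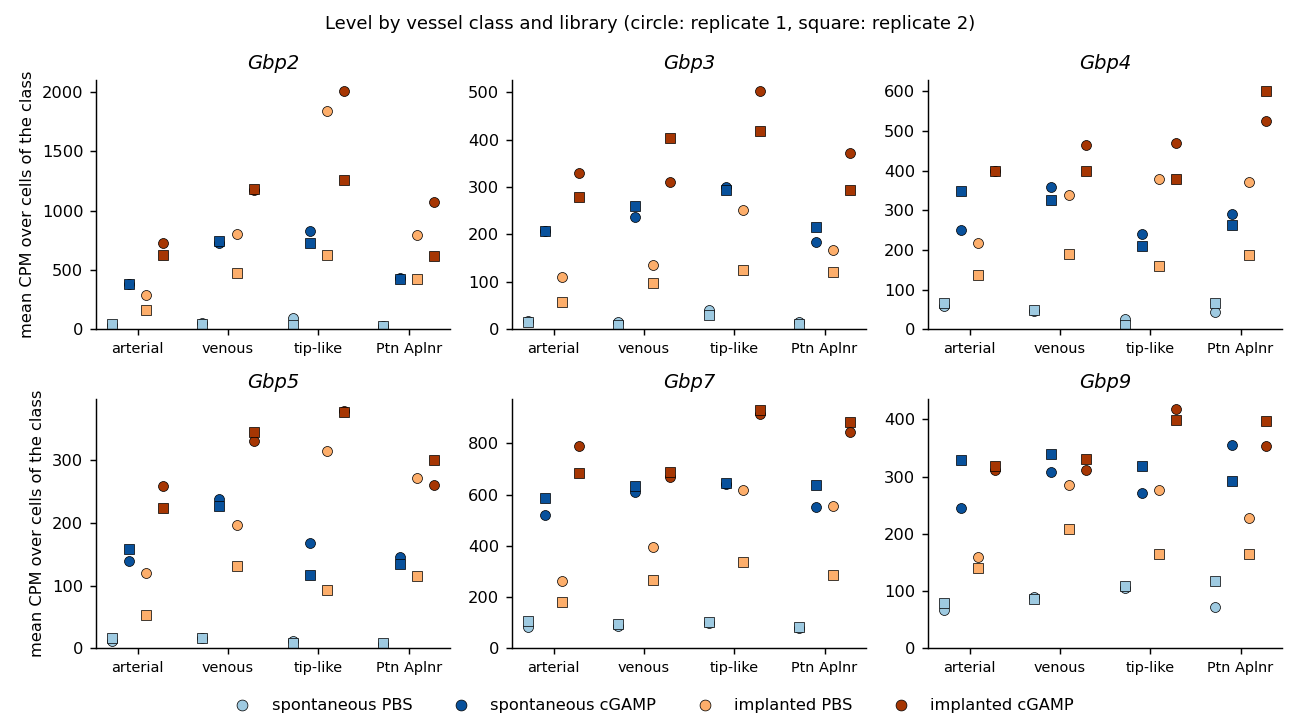
Mean CPM (y axis, from 0) of 6 GBP genes in arterial, venous (postcapillary, stalk-like), tip-like and Ptn Aplnr ECs (x axis), with 1 point per library coloured by group (circle, replicate 1; square, replicate 2). Gbp2 in tip-like ECs reaches 1835 and 623 CPM in the implanted PBS libraries, against 287 and 160 CPM in arterial ECs.

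Each class was set against the other ECs of the same library, and the 8 differences were tested with limma. In tip-like ECs Gbp2 (0.87 ± 0.09 in log2, adjusted p = 6.22e-07), Gbp3 (0.65 ± 0.05, 3.15e-08), Gbp7 (0.34 ± 0.04, 5.80e-06) and Gbp9 (0.18 ± 0.05, 0.0126) were higher, 4 of 8 members against 16.4% of genes. Gbp2, Gbp3 and Gbp7 were higher in 8 of 8 libraries and Gbp9 in 6. Gbp4 was lower (-0.39 ± 0.09, 0.00269; 22.9% of genes were called lower), but in 5 of 8 libraries only, mainly those of spontaneous PBS (-0.99 and -2.08), and with finer clusters it turned to 0.14. Gbp9 was called in 7 of 10 alternative analyses, and lost its call without implanted PBS replicate 1 (adjusted p = 0.0844), without spontaneous cGAMP replicate 2 and when the shallow cluster was left out of the other cells. The tip-like excess of Gbp2 was 1.68 and 1.04 in implanted PBS, 1.06 and 0.86 in implanted cGAMP, 0.79 and 0.49 in spontaneous cGAMP, and 1.04 and 0.01 in spontaneous PBS.

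In arterial ECs 5 members were lower, against 22.2% of genes: Gbp2 (-0.68 ± 0.06, adjusted p = 2.99e-07), Gbp3 (-0.37 ± 0.06, 5.26e-05), Gbp5 (-0.28 ± 0.07, 0.00424), Gbp9 (-0.27 ± 0.06, 0.000880) and Gbp7 (-0.17 ± 0.05, 0.00897). Gbp2 was lower in 7 of 8 libraries, by the most in implanted PBS (-1.59 and -1.35), and Gbp7 in 5, losing its call without implanted PBS replicate 1. Gbp5 lost its call with finer clusters (-0.23, 0.0792). In venous ECs 3 members were higher, against 12.5% of genes. These were Gbp5 (0.47 ± 0.07, 3.92e-05) and Gbp2 (0.41 ± 0.06, 6.10e-05), both in 8 of 8 libraries, and Gbp4 (0.21 ± 0.05, 0.00275) in 6, which lost its call when the shallow cluster was left out of the other cells (0.10, 0.117). Gbp2 was thus higher in tip-like and venous ECs and lower in arterial ECs than in the rest, while Gbp5 was called higher in venous ECs and not in tip-like ECs (0.09 ± 0.09, 0.463).

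**Figure D5:**
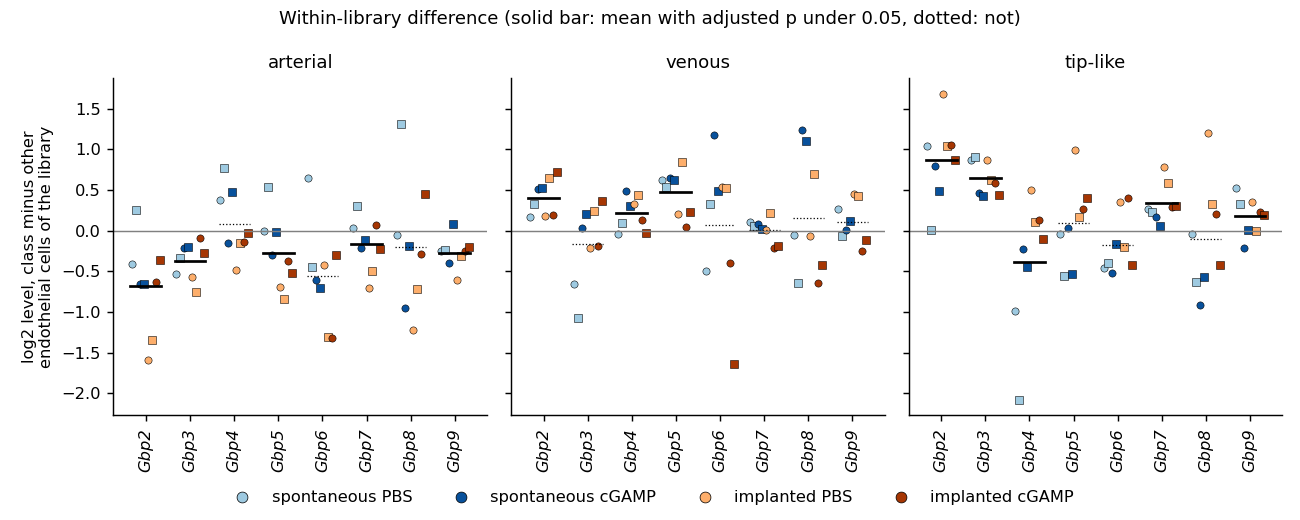
Log2 level of each GBP gene (x axis) in arterial, venous and tip-like ECs minus that in the other ECs of the same library (y axis), with 1 point per library coloured by group and a bar at the mean, solid where the adjusted p is under 0.05. Gbp2 is below 0 in arterial ECs (-0.68) and above 0 in tip-like ECs (0.87), and the farthest Gbp2 points are those of implanted PBS replicate 1 in both (-1.59 and 1.68).

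All classes took part in the spontaneous response. Of the 8 members 7 rose in arterial ECs (3.33% of genes called higher), 8 in venous ECs (3.41%) and 8 in tip-like ECs (4.28%), with Gbp2 at 3.14 ± 0.20, 3.82 ± 0.18 and 3.66 ± 0.37. In the implanted tumour 7 rose in arterial ECs (4.57%), 5 in venous ECs (4.25%) and 4 in tip-like ECs (6.98%). Gbp2 rose in arterial ECs (1.65 ± 0.20, adjusted p = 0.000110) and venous ECs (0.93 ± 0.18, 0.00217) and in tip-like ECs had a value of 0.57 ± 0.37 (0.33), which was 1.35 without implanted PBS replicate 1, when 7 members passed in tip-like ECs, and -0.21 without replicate 2. The difference between the classes was not tested.

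The implanted rise was smaller than the spontaneous one for 7 members in venous ECs (1.11% of genes called lower) and for 5 in tip-like ECs (0.935%). Gbp2 had -2.89 ± 0.25 (adjusted p = 3.35e-06) in venous ECs and -3.09 ± 0.53 (0.00516) in tip-like ECs. Gbp4 had -2.06 ± 0.28 (0.000415) and -2.88 ± 0.46 (0.00264), and so passed in both although it did not over all ECs. In arterial ECs 0 members passed in limma (0.107% of genes called lower), with Gbp2 at -1.50 ± 0.28 (0.0780), and 4 passed without implanted PBS replicate 2. The venous calls held at 7 or 8 members without any 1 library, and the tip-like calls ranged from 3, without spontaneous PBS replicate 2 or implanted cGAMP replicate 2, to 7, without implanted PBS replicate 2. After PBS the members were higher in the implanted tumour in each class, 7 in arterial (1.29%), 8 in venous (3.46%) and 8 in tip-like ECs (2.22%), with Gbp2 at 2.32 ± 0.20, 3.57 ± 0.18 and 4.13 ± 0.37.

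Other genes of the GBP pathway were read from lists, over the same 10424 genes. The further GBPs Gbp2b and Gbp10 rose in both models, by 2.96 and 3.77 in the spontaneous and 1.58 and 1.22 in the implanted tumour, with the reads of Gbp10 not separable from those of Gbp6 and Gm43302. The implanted value of Gbp10 stood at the threshold (adjusted p = 0.0492) and was called in 10 of 21 alternative analyses. The immunity-related GTPases, which act with GBPs on pathogen vacuoles, moved like the members. Of the 12 tested 11 rose in the spontaneous and 9 in the implanted tumour, against 5.09% and 8.60% of all genes called higher. Among both were Gm4951 (4.31 and 1.64), F830016B08Rik (4.25 and 1.26), Igtp (3.85 and 1.32) and Tgtp2 (3.83 and 1.65). The implanted rise was smaller for 8 of them, but for only 1 without spontaneous PBS replicate 1 or either spontaneous cGAMP library, 3 without spontaneous PBS replicate 2 and 0 with no filter on low values. Over all genes 0.460% were called lower for this difference in rise. In implanted PBS 10 of the 12 were higher, against 3.39% of all genes.

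Upstream of the GBPs, 22 interferon receptors, kinases, transcription factors and their inhibitors were read. Of these, 11 rose in the spontaneous tumour, against 5.09% of all genes called higher. In the implanted tumour 12 rose, against 8.60%, and 2 fell, a smaller share than the 16.4% of all genes called lower. The 2 were the receptor chains Ifnar1 (-0.53) and Ifngr1 (-0.39). These receptor chains, and Irf9 below, are named after their values were seen. Irf7, a factor of the interferon feedback loop, rose by 5.85 and 4.12, the inhibitor Usp18 by 3.96 and 3.45, the MHC class I regulator Nlrc5 by 3.40 and 1.14, and Batf2 by 2.77 and 1.65. The implanted rise was smaller for 3 of the 22, against 0.460% of all genes called lower in this term. These were Irf7 (-1.73), Nlrc5 (-2.25) and Irf9 (-0.91), a factor that binds the ISRE. Of these, 1 was called without spontaneous PBS replicate 1, and 0 without any other spontaneous library or with no filter. The sensor side moved little. Of 6 STING pathway genes tested, the adaptor Tmem173 had 0.28 (adjusted p = 0.177) and 0.41 (0.0414), the kinase Tbk1 0.32 (0.0511) and 0.67 (0.000928), and Lrrc8c, a channel subunit that passes cyclic dinucleotides, fell by 0.34 in the spontaneous tumour and had -0.29 (0.0548) in the implanted tumour. The calls of Tmem173 in the implanted and Lrrc8c in the spontaneous tumour (adjusted p = 0.0480) held in 12 and 11 of 21 alternative analyses.

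Downstream, against 5.09% and 8.60% of all genes, 4 of 9 inflammasome and pyroptosis genes rose in the spontaneous and 7 in the implanted tumour. They included the adaptor Pycard (1.18 and 1.38), the lipopolysaccharide-sensing caspase Casp4 (1.35 and 1.02) and the pore-forming Gsdmd (1.10 and 0.89). Il1b had 0.11 (adjusted p = 0.927) in the spontaneous tumour and rose by 4.14 in the implanted tumour, where the summed immune markers were 339 and 92.4 CPM after cGAMP, and the part of immune cells in this was not tested. Of the 14 ATG8 and ubiquitin genes that place GBPs on membranes 2 rose in each model and 2 fell in the implanted tumour, where 8.60% of all genes were called higher and 16.4% lower, so that these shares were near those over all genes. Trim21 rose by 1.62 and 1.46, Gabarap rose by 0.26 (0.0300, called in 14 of 21 alternative analyses) and had 0.12 (0.196), Sqstm1 had 0.34 (0.0616) and rose by 0.71, and Map1lc3a had -0.06 (0.762) and fell by 0.47. Of the 6 enzymes that prenylate and process CaaX ends, as carried by Gbp2 and Gbp5, none passed in limma in the spontaneous tumour. Fnta (-0.52) and Pggt1b (-0.48) fell in the implanted tumour. These falls were called in 19 and 14 of 21 alternative analyses, and that of Map1lc3a in 17.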

How the data were processed

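Libraries were made with the 10x 3′ v3 kit from live CD45-/CD31+ sorted cells. Reads were aligned with Cell Ranger 3.0.0 to mm10, and the authors removed cells under 500 genes or over 10% mitochondrial reads and genes in under 3 cells (Seurat 3.1.1). The deposited matrices hold the natural log of 1 plus UMIs scaled to 10000 per cell. UMIs were worked back from each cell's smallest step, and 100% of values came out whole within 0.01.

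Levels are mean CPM over cells with Pecam1 above 0, the members and lists being chosen with earlier results of these data known. limma 3.58.1 (R 4.3.3, trend) was fitted to log2(CPM + 1) over all 8 libraries as 4 group means, for 10424 genes at 5 CPM or more in 2 libraries, and p-values were Benjamini-Hochberg adjusted over all genes at a threshold of 0.05. This scale understates changes of low genes. Each library is 1 mouse.

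Clusters came from Seurat 5.3.0 (2500 variable genes, 30 components, Louvain resolution 0.5) without 952 genes that held the members, interferon genes and genes moved by cGAMP. Names rest on at least 3 markers. No doublet caller was run. Classes were tested with 20 or more cells in each library. Shares per cell used cells thinned to 2000 UMIs, with Wilson 95% intervals.

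Besides the 8 members, up to 4 genes a list with the largest changes among those called are named, and the genes nearest in pattern, of which 1 is not reported here. Alternatives changed the pseudocount, filter, scaling, cells used, resolution and replicate block, or left out 1 library. On simulated data for the implanted response, 91 of 100 genes changed 2-fold and 100 of 100 changed 4-fold were called among 10114. For the response difference these were 49 and 100, with 6 unchanged genes called. The simulated replicates had the same fixed spread for all genes and groups. The real implanted PBS replicates differed by 1.36 times for Gbp9 to 4.23 times for Gbp8. These counts therefore do not give how often such changes would be called in the real libraries. No column of the matrices was left unused.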

Additional observations from a re-analysis of the deposited data

Results flagged for a closer look

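The response to cGAMP differed between the models, by the interaction term in limma, for 4 members and for 6 list genes named by the fixed rule. Among the members the implanted change minus the spontaneous change was -2.75 for Gbp2, -1.87 for Gbp3, -2.36 for Gbp5 and -1.47 for Gbp7 (log2). Among the immunity-related GTPases it was -2.53 for Igtp, -2.17 for Tgtp2, -2.67 for Gm4951 and -2.99 for F830016B08Rik, and among the upstream factors -1.73 for Irf7 and -2.25 for Nlrc5. When any 1 spontaneous library was left out, 2 to 14 of all genes passed for this term. Of these 6 list genes, F830016B08Rik was called in 19 of 20 alternatives, Nlrc5 in 14 and the others in 15, and every value stayed below 0. The 4 members were each already higher in implanted PBS than in spontaneous PBS, and those PBS libraries enter the term itself. None of the 4 members passed when any 1 spontaneous library was left out, although Gbp2 kept a value between -2.89 and -2.61.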

How the results depend on the processing

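The 8 calls in the spontaneous response held under every alternative run, and the direction of all but 2 of 1721 member values was kept. The exceptions were in tip-like ECs. Gbp2 had -0.21 in the implanted response without implanted PBS replicate 2. Gbp4 minus the rest had 0.14 at resolution 1.0 (adjusted p = 0.158 in limma). For the vessel classes the values covered only Gbp2 and the members called as reported. Many values could not move, because the filter and a library outside a comparison do not enter its fold change. The count of kept directions therefore does not measure stability. The number of members called for the response difference, 4 as reported, was 1 with a pseudocount of 5 CPM, 0 with no filter on low values and 0 to 7 without any 1 library. For implanted against spontaneous after cGAMP, 1 as reported, it was 0 with no filter, 0 with UMIs summed per library, 0 without the shallow cluster, 6 in a fit of the cGAMP libraries alone and 0 to 6 without any 1 library. Leaving out 1 library gave 0 to 4 members for the arterial response difference, 3 to 7 for the tip-like response difference (0 with no filter) and 3 to 7 for the tip-like implanted response, where Gbp2 ranged from -0.21 to 1.35.

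Without thinning, the mean number of members per cell was 1.76 after PBS and 4.87 after cGAMP in the spontaneous tumour and 3.59 and 4.91 in the implanted tumour. The share of cells with a UMI was also taken for each member by itself. In the same order, the median of these shares over the members was 21.2%, 76.9%, 52.5% and 73.5%, against 4.94%, 35.7%, 22.6% and 46.4% thinned. Over all genes, 1322, 2609, 69, 816 and 1434 were called in the 5 comparisons (spontaneous, implanted, response difference, PBS, cGAMP). These counts were 812, 2179, 0, 327 and 784 with no filter, and 2839, 3722, 112, 1317 and 2069 with summed UMIs. Of 956 values of named list genes under alternatives, 87 lost their call and none changed sign. The cause of these shifts was not tested. The list values covered only genes called as reported in that comparison. Leaving out a library outside a comparison also leaves its fold change as it was, so the kept signs say little.

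Same-numbered replicates deviated with correlations from -0.22 to 0.13, so the numbers were not taken to pair the samples. With the replicate block 8, 7, 3, 8 and 1 members were called, and with the numbers of spontaneous PBS crossed 8, 8, 5, 8 and 2.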

Other observations

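Rarer EC classes, with under 20 cells in some library, also held more GBP transcripts after cGAMP, given here as values with no test. In AQP7 capillary ECs the summed members were 827 and 614 CPM after PBS and 2209 and 2213 after cGAMP in the spontaneous tumour, and 2050.2 and 1864 and then 4564 and 2499.8 CPM in the implanted tumour. Their spontaneous PBS level lay above that of the arterial, venous and tip-like ECs of the same libraries. Lymphatic ECs held 862 and 224, 2448 and 3030, 1893 and 1374, and 3005 and 2646 CPM in the same order, with the spontaneous PBS pair resting on 16 and 22 cells. Proliferative ECs held 195 and 227, 1527 and 1326, 837 and 696, and 3041 and 1766 CPM.

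Mural cells, which were 176 cells in all, held 320 and 311 CPM after PBS and 2271 and 1758 after cGAMP in the spontaneous tumour, and 2100 and 886 and then 3193 and 2968 CPM in the implanted tumour. The order of the groups' means in these cells was that seen in ECs, on as few as 3 cells in a library. These cells were Pecam1-positive and held a median of 2.08 times the median UMIs of their library. The part of ECs caught together with them was not tested.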
